A study of Sus scrofa with 27 samples.

Results

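Cholesterol made inside a cell is built from acetyl-CoA through the mevalonate pathway, and the genes of its enzymes are held under feedback by the membrane-bound transcription factor SREBP-2. When sterols are scarce in the endoplasmic reticulum, SREBP-2 is carried to the Golgi, cleaved and sent to the nucleus, where it turns on the enzyme genes through sterol regulatory elements in their promoters. When sterols are plentiful, INSIG proteins hold it back, and oxysterols activate the nuclear receptor LXR, which turns on genes for cholesterol export. In the lung, cholesterol is also a component of the surfactant that alveolar type 2 cells secrete.

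The 7 genes described here are HMGCS1, IDI1, FDFT1, SQLE, LSS, SREBF2 and INSIG1, chosen by name from a table of 31908 pig genes. All 7 are in the table and none was dropped for low counts, since the lowest count in a library was 450 (LSS). HMGCS1 and IDI1 encode enzymes of the mevalonate steps, FDFT1, SQLE and LSS enzymes that make squalene and close it to the first sterol, and SREBF2 and INSIG1 encode SREBP-2 and one of the proteins that retain it. None of them encodes a receptor or a carrier for cholesterol uptake, and uptake genes are given below only from a wider list.

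Lungs of Large-White pigs, taken from donors after cardiac arrest and kept through cold ischemia, were perfused outside the body for 12h in ex vivo lung perfusion (EVLP), in which the organ is ventilated and a fluid, here Steen solution with methylprednisolone, cefuroxime and heparin, is pumped through its vessels. In the Gold Standard (GS) group of 5 pigs (9, 17, 44, 55 and 77) part of the perfusate was replaced at intervals, and in the Pediatric Dialysis (PD) group of 4 pigs (2, 3, 4 and 5) the perfusate was dialysed instead. Each lung was biopsied at 0h (after cold ischemia and before perfusion), 6h and 12h, which gave 27 polyA RNA-seq libraries, 15 GS and 12 PD. Both groups had the same donor model, ischemia and steroid-containing perfusate, and no unperfused lung was followed over time here, so the time points compare each lung with itself before perfusion and a change cannot be told apart from the time since removal. The PD pigs had also served in an earlier study and the GS pigs had not. Age was not given.

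GS libraries held 26335584 to 67522703 counts (median 53623755) and PD libraries 14650700 to 21820935 (median 19344265), so no PD library was as deep as any GS library. The library of PD pig 2 at 12h stood apart, with a mean Spearman correlation of 0.811 with the other PD libraries of that time, against 0.899 to 0.927 for those. Lung markers were present in every library, with SFTPB and NAPSA of alveolar type 2 cells at no less than 224 and 86.0 CPM (counts per 1000000 counts of a library), PECAM1 of endothelium at no less than 469.6 and MARCO of alveolar macrophages at no less than 258. The 3 liver genes in the table, nearly all of it APOA1, summed to 372 CPM in that library of PD pig 2 at 12h and to 24.8 to 72.7 CPM in the others, and their part in its values was not tested. CPM values here were scaled by TMM. A biopsy mixes all lung cells, so fewer cells of a type and less RNA per cell cannot be told apart.

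Since the 7 genes are known as targets or parts of 1 feedback loop, the 250 bases before the RefSeq gene start (Sscrofa11.1) of 6 of them, all but SQLE, were read and searched on both strands. The sterol regulatory element was searched as TCACNCCAC, the NF-Y box as CCAAT and the GC box as GGGCGG, and these are letter matches only. TCACNCCAC was present before HMGCS1 and SREBF2, that is before 2 of the 6, and before 159 of 20632 promoters of the same length (0.771%). CCAAT was present before all 6 and before 32% of all promoters. GGGCGG was also present before all 6, and before 44.5% of all promoters. The promoters of the 2 genes with a TCACNCCAC match are shown, with that of IDI1, the gene whose level differed most between the groups. The RefSeq annotation lists IDI1 as LOC100625049, and it was matched by its NCBI gene number. Capitals mark TCACNCCAC and CCAAT or its reverse complement ATTGG, and each promoter runs 5′ to 3′ in the direction of its gene.
HMGCS1 (chr16:27957262-27957511, minus strand): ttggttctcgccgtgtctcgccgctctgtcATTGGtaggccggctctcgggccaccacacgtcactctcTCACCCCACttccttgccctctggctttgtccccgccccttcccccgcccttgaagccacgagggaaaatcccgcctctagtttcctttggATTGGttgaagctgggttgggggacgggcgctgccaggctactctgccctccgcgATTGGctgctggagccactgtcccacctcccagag
SREBF2 (chr5:6784725-6784974, minus strand): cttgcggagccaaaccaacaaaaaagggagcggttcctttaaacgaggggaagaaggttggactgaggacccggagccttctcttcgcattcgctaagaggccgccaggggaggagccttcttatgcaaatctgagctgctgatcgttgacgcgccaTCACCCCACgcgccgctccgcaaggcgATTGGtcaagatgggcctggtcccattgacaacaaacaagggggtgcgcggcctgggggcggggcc
IDI1 (chr10:68534270-68534519, plus strand): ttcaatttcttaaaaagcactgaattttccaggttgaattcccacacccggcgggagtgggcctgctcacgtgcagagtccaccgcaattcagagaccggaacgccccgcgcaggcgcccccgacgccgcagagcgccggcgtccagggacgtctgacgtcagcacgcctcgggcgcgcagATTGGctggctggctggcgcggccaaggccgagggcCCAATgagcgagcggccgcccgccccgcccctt

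In HMGCS1 the match TCACCCCAC lay at bases -181 to -173 before the gene start, and in SREBF2 TCACCCCAC lay at -93 to -85. HMGCS1 had 3 NF-Y boxes, IDI1 had 2, and SREBF2, INSIG1, FDFT1 and LSS had 1 each. INSIG1 and LSS had 6 GC boxes each, some of them overlapping in INSIG1, and the 3 of IDI1 lay within the last 18 bases before the start and overlapped. The map of motif matches shows these positions. RefSeq and Ensembl place gene starts differently, and the FDFT1 window lies inside the longer Ensembl gene model.

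**Figure D1:**
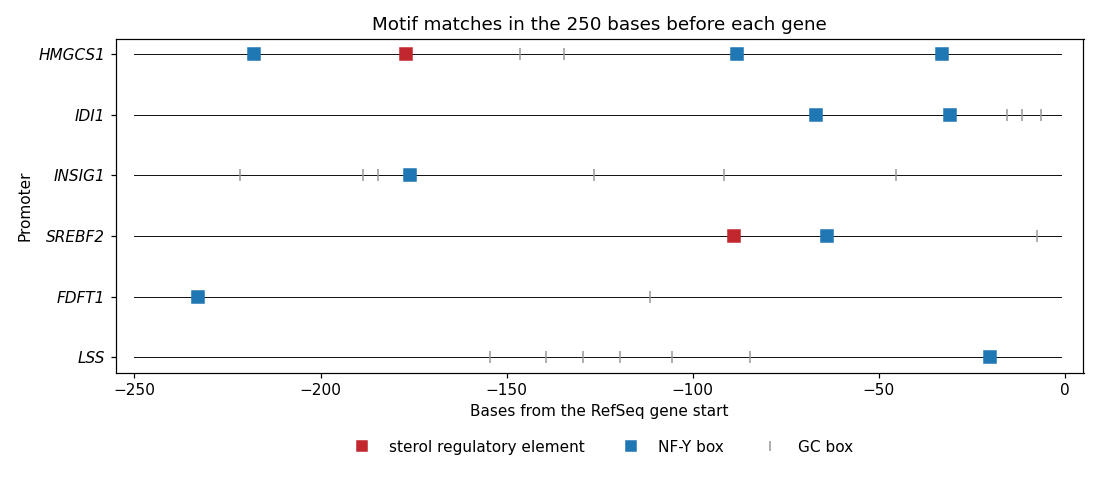
Matches of 3 motifs in the 250 bases before the RefSeq start of 6 genes (x axis: bases from the gene start; one line per promoter; squares: sterol regulatory element in red and NF-Y box in blue, ticks: GC box in grey). Of these 6, only HMGCS1 and SREBF2 hold a red square, and every promoter holds at least 1 NF-Y box and 1 GC box.

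Compared per kilobase of exon, INSIG1 and SQLE were the most abundant of the 7, with medians over the 27 libraries of 65.6 and 49.8 CPM per kb. SREBF2 followed at 27, FDFT1 at 17.7, IDI1 at 15.3, LSS at 14.5 and HMGCS1 at 12.4 CPM per kb. The ranges of neighbours overlapped throughout, for example 27 to 137 CPM per kb for INSIG1 and 30.1 to 116 for SQLE. The order differed by group, since IDI1 had a median of 35.3 CPM per kb in PD and 10.3 in GS, and HMGCS1 22.2 in PD and 8.34 in GS, whereas SREBF2 stood at 20.1 in PD and 36.7 in GS. Over all libraries pooled, FDFT1 had the lowest SD, 0.33 on the log2 CPM scale, and IDI1 the highest, 0.97. This pooled SD includes the difference between PD and GS. Within each group and time the SD of IDI1 (0.25 to 0.67) was below that of LSS (0.54 to 0.75).

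The first question was whether the genes of cholesterol synthesis moved while the lung was perfused under the standard procedure. None of the 7 was called in GS lungs at 6h or 12h, where a call needs a 2-fold change or more together with an adjusted p under 0.05 (edgeR quasi-likelihood test with the pig as a block). Of all genes tested, 11.1% were called at 6h and 15.7% at 12h. With the adjusted p alone, HMGCS1 and FDFT1 fell at 12h, 2 of 7 against 38.4% of all genes, and none of the 7 passed at 6h, against 28.5%. Both falls were small, and each was lost under most other settings, as given below. An unadjusted p under 0.05 was reached by LSS at 6h (41.2% of all genes) and by HMGCS1, SQLE and FDFT1 at 12h (48.5% of all genes), and DESeq2 called none of the 7 at either time. SQLE, the next enzyme after FDFT1, had the opposite sign at 12h.

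HMGCS1 (ENSSSCG00000016872, chr16:27936217-27957194, 5255 bases of exon) encodes the cytosolic HMG-CoA synthase, which joins acetoacetyl-CoA and acetyl-CoA. In GS pigs 9, 17, 44, 55 and 77 its level was 55, 83.5, 64.9, 36.5 and 62.2 CPM at 0h, 63.1, 97.6, 29.4, 41.6 and 37.8 CPM at 6h, and 40.8, 56.6, 24.9, 39.8 and 43.8 CPM at 12h. It was lower at 12h than at 0h in 4 of 5 pigs, the exception being pig 55, and the ranges of the times overlapped. The fitted log2 fold change was -0.27 (SE 0.21, adjusted p = 0.364, edgeR) at 6h and -0.61 (SE 0.21, adjusted p = 0.0398) at 12h. Of 11 other settings, 2 kept the adjusted p under 0.05 at 12h, with adjusted p from 0.0332 to 0.223 and log2 fold changes from -0.77 to -0.37. Without pig 44 the 6h value was -0.02.

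FDFT1 (ENSSSCG00000026044, chr14:14967273-15104179, 3124 bases of exon) encodes squalene synthase, the first enzyme committed to sterols. In GS pigs 9, 17, 44, 55 and 77 it stood at 70.2, 64, 73.3, 51.7 and 63.5 CPM at 0h, 63.1, 52.4, 45.3, 55.2 and 62.1 CPM at 6h, and 46.8, 43.6, 39.4, 55 and 63.6 CPM at 12h. Pigs 9, 17 and 44 came down by 12h, whereas pigs 55 and 77 ended slightly above their own start. The log2 fold change was -0.24 (SE 0.14, adjusted p = 0.222, edgeR) at 6h and -0.43 (SE 0.14, adjusted p = 0.0322) at 12h, and 3 of 11 other settings kept the 12h value under 0.05 (adjusted p 0.0275 to 0.193, log2 fold changes from -0.54 to -0.29). Without pig 44 the 6h value was -0.11. The Ensembl model of FDFT1 overlaps NEIL2 on the same strand and CTSB on the other, so some reads there cannot be assigned to 1 gene, and FDFT1 is uncertain to that extent. NEIL2 fell too at 12h in GS (-1.15, SE 0.32, adjusted p = 0.0129, edgeR), and CTSB was higher by the adjusted p alone (0.46, SE 0.14, adjusted p = 0.0195). The part of these neighbours in the FDFT1 value was not tested.

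SQLE (ENSSSCG00000005970, chr4:14669791-14700126) encodes squalene epoxidase, a rate-limiting step of the sterol branch. In GS pigs 9, 17, 44, 55 and 77 it stood at 120, 124, 92.9, 89.4 and 134 CPM at 0h and 127, 148, 125, 131 and 181 CPM at 12h. Every one of the 5 pigs was higher at 12h, by 0.08 to 0.55 on the log2 scale, and the fitted change of 0.32 did not pass (SE 0.13, adjusted p = 0.076, edgeR). Of 11 other settings 4 brought it under 0.05, among them DESeq2 (adjusted p from 0.0323 to 0.351, log2 fold changes from 0.28 to 0.43). At 6h the change was 0.19 (SE 0.14, adjusted p = 0.301), with 4 of 5 pigs higher. Leaving out 1 pig gave 6h values from 0.12 (without pig 55) to 0.31 (without pig 77).

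The other 4 genes did not pass in GS at either time. IDI1 (ENSSSCG00000029066, chr10:68534796-68539279), which encodes the isomerase that makes the second 5-carbon building block, had log2 fold changes of 0.28 (SE 0.24) at 6h and -0.13 (SE 0.24) at 12h. LSS (ENSSSCG00000021418, on the unplaced scaffold AEMK02000328.1, 519609 to 554041), which closes the sterol rings, had 0.35 (SE 0.16, adjusted p = 0.113, edgeR) at 6h and 0.12 (SE 0.16) at 12h. SREBF2 (ENSSSCG00000026092, chr5:6719487-6784672), which encodes SREBP-2, had 0.26 (SE 0.14) and 0.11 (SE 0.14). INSIG1 (ENSSSCG00000016420, chr18:2885611-2898767), which retains SREBP-2 and is itself a target of it, had -0.34 (SE 0.22) and -0.36 (SE 0.22), with 4 of 5 pigs lower at each time. The 95% intervals of all 4 genes lay inside a 2-fold change in either direction at both times. Single pigs moved these small values, since INSIG1 had -0.11 and -0.18 without pig 9, and without pig 55 IDI1 had 0.03 and LSS 0.19 at 6h. Other pigs moved them away from 0, with INSIG1 at -0.53 at 6h without pig 55 and -0.58 at 12h without pig 77. IDI1 had 0.46 at 6h without pig 44. At 12h the sign turned for IDI1 without pig 44 (0.02) and for SREBF2 and LSS without pig 55 (-0.03 each).

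**Figure D2:**
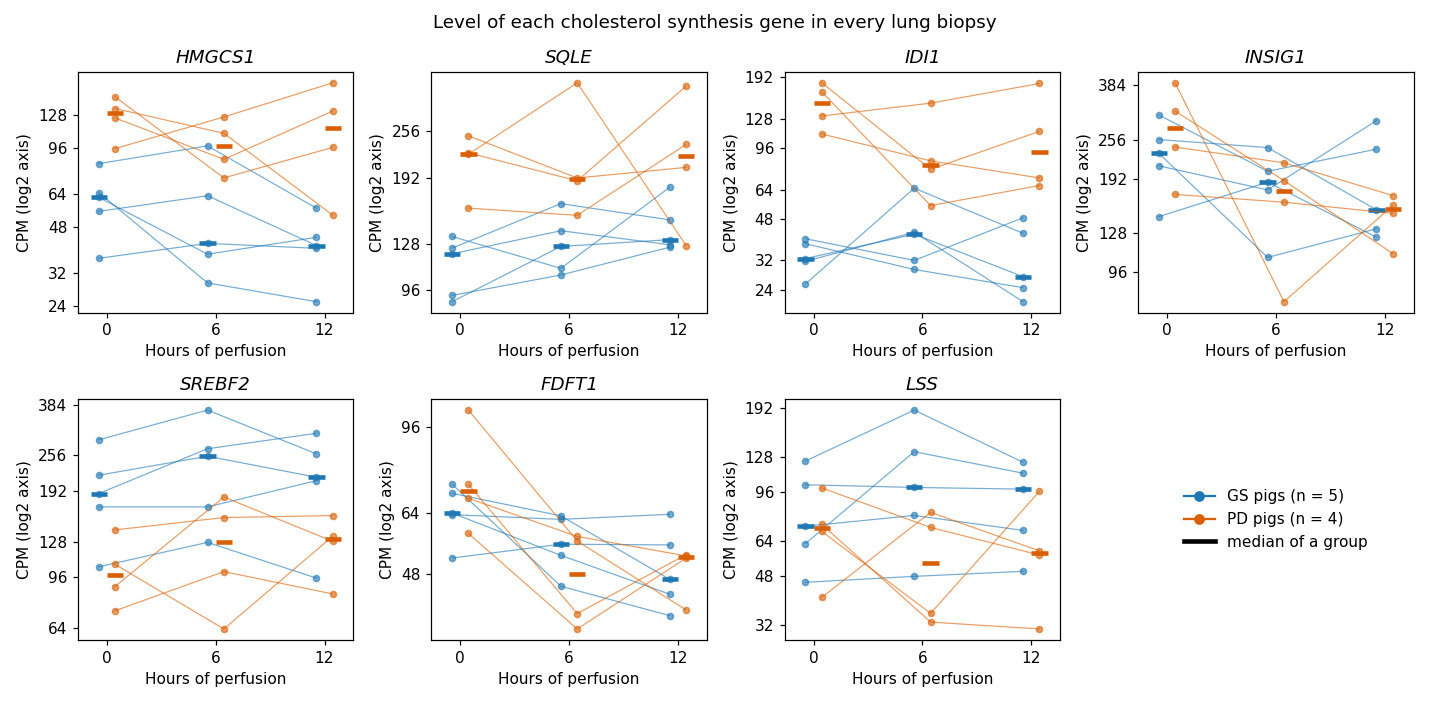
CPM on a log2 axis of the 7 genes against hours of perfusion, one point per biopsy, thin lines joining the biopsies of a pig, thick bars at the median of each group (blue: 5 GS pigs, orange: 4 PD pigs). PD points lie above all GS points for HMGCS1, SQLE and IDI1 at 0h, and lines of both groups cross within most panels.

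In dialysed lungs none of the 7 was called at 6h, where 0.142% of all genes were, or at 12h, where 5.98% were. None of the 7 at 6h and only INSIG1 at 12h had an unadjusted p under 0.05, against 9.41% and 24.5% of all genes, and DESeq2 called none of the 7. INSIG1 and FDFT1 were lower in all 4 PD pigs at both times, although neither passed the correction. INSIG1 in PD pigs 2, 3, 4 and 5 stood at 243, 171, 392 and 317 CPM at 0h, 216, 161, 77 and 189 CPM at 6h, and 169, 148, 157 and 110 CPM at 12h. The 12h values of all 4 pigs were below the lowest 0h value of the group, and pig 4 had the lowest 6h value. The log2 fold change was -0.81 (SE 0.42, adjusted p = 0.576, edgeR) at 6h and -0.94 (SE 0.41, adjusted p = 0.187) at 12h, with a 95% interval at 12h of -1.85 to -0.04. Without pig 4 the 6h value was -0.34. With all 27 libraries in 1 fit the adjusted p at 12h was 0.0483, at a log2 fold change of -0.93. Every other setting left the adjusted p at 12h above 0.05, up to 0.617 without pig 5 (edgeR). With 1 pig left out the 12h value ran from -1.17 (without pig 3) to -0.72 (without pig 4).

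FDFT1 in PD pigs 2, 3, 4 and 5 stood at 58.1, 68.6, 73.2 and 104 CPM at 0h, 37.0, 57.3, 39.8 and 56.1 CPM at 6h, and 51.7, 52.3, 52.6 and 40.5 CPM at 12h. All 6h and 12h values were below the lowest 0h value. The log2 fold change was -0.68 (SE 0.32, adjusted p = 0.540, edgeR) at 6h and -0.59 (SE 0.32, adjusted p = 0.280) at 12h. In PD its overlapping neighbour NEIL2 had -0.77 (SE 0.53) at 6h and -1.80 (SE 0.57, adjusted p = 0.0841, edgeR) at 12h. CTSB had 0.71 and 0.41, and neither neighbour passed the adjusted p. Their part in the FDFT1 values of PD was not tested. Summed cell markers moved in PD over the same times, with medians at 0h, 6h and 12h of 42792, 24606 and 24522 CPM for alveolar type 2 cells, 685, 318 and 424 for neutrophils and 132, 33.5 and 10.8 for erythroid cells. None of these markers passed the adjusted p, and their ranges at 0h and 12h overlapped. T and NK cell sums in PD lay at 120 to 206 CPM at 0h and lower at 12h, at 77.1 to 111 CPM, without overlap. Of these 4 markers 1 was called lower at 12h, beside 5.98% of all genes. B cell medians went from 40.2 CPM at 0h to 22.2 at 12h, and airway medians the other way, from 1035 to 2004 CPM. The part of any of these cell types in the INSIG1 and FDFT1 values was not tested.

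IDI1 in PD pigs 2, 3, 4 and 5 stood at 132, 110, 182 and 167 CPM at 0h, 149, 84.9, 78.1 and 54.7 CPM at 6h, and 181, 71.8, 113 and 66.6 CPM at 12h. It was lower than at 0h in 3 of 4 pigs at both times, and pig 2, whose 12h library stood apart, was higher at both. The log2 fold change was -0.80 (SE 0.37, adjusted p = 0.534, edgeR) at 6h and -0.60 (SE 0.37, adjusted p = 0.342) at 12h. These values rested on single pigs, since without pig 5 they were -0.51 and -0.33, and without pig 2 the 12h value was -0.93 (adjusted p = 0.0541). SREBF2 had 0.26 (SE 0.35) at 6h and 0.29 (SE 0.34) at 12h, where it was higher in 4 of 4 pigs by 0.17 to 0.52 on the log2 scale. HMGCS1 had -0.39 (SE 0.38) and -0.25 (SE 0.38), SQLE 0.03 (SE 0.39) and 0.09 (SE 0.39), and LSS -0.41 (SE 0.45) and -0.28 (SE 0.45). With 1 pig left out the 6h value of LSS ran from -0.88 (without pig 3) to -0.08 (without pig 4). That of HMGCS1 ran from -0.58 (without pig 4) to -0.18 (without pig 5). Removal of each library's trend with exon length and GC content, described below, gave -0.69 for HMGCS1 at 6h. It gave -0.21 and -0.09 for LSS and -0.14 and -0.02 for SQLE at 6h and 12h. None of these passed the adjusted p. Some signs turned when 1 pig was left out, as for HMGCS1 at 12h (0.03 without pig 2), LSS at 12h (0.11 without pig 4), SREBF2 at 6h (-0.03 without pig 3) and SQLE at 6h (-0.26 without pig 2) and 12h (-0.10 without pig 3, -0.08 without pig 4). The PD intervals were wide, so that for LSS at 12h the 95% interval ran from -1.28 to 0.71, and a 2-fold fall in PD lungs was within the interval of 5 of the 7 genes at 6h.

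**Figure D3:**
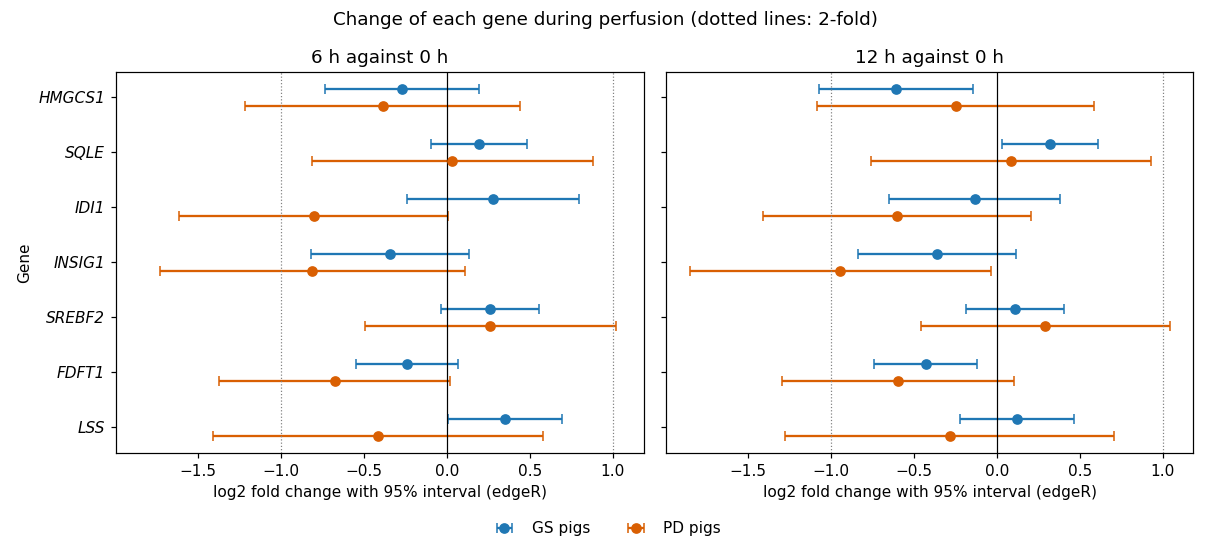
Log2 fold change of the 7 genes at 6h (left) and 12h (right) against 0h of the same lungs, with 95% intervals (blue: 5 GS pigs, orange: 4 PD pigs; dotted lines: 2-fold). At 12h the intervals of HMGCS1, SQLE and FDFT1 in GS and of INSIG1 in PD leave out 0, and no point reaches a 2-fold change.

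Between 6h and 12h no gene of the whole table passed the adjusted p in GS or in PD (0% in each, edgeR, where 882 genes of GS and 1562 of PD had an unadjusted p under 0.05). The 7 genes changed by -0.41 (IDI1) to 0.13 (SQLE) on the log2 scale in GS and by -0.13 (INSIG1) to 0.20 (IDI1) in PD over this time. Of the 7, none had an unadjusted p under 0.05 in either group, the lowest being 0.111 for IDI1 in GS. DESeq2 called 6 genes of the table in GS and 205 in PD, none of them among the 7.

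Whether dialysis altered these changes was tested as the interaction of group and time. No gene of the table passed at 6h or 12h (0% of 17884 genes in each, edgeR, with 5.85% and 5.98% at an unadjusted p under 0.05), so none of the 7 did. DESeq2 called 13 and 27 genes, none of them among the 7. The lowest p among the 7 was that of IDI1 at 6h, whose change was 1.09 lower on the log2 scale in PD than in GS (SE 0.42, unadjusted p = 0.0176, adjusted p = 0.783). It was the only one of the 14 interaction tests of the 7 genes with an unadjusted p under 0.05. That p rose above 0.05 without PD pig 4 (0.0521), PD pig 5 (0.0963) or GS pig 55 (0.0645, edgeR). The IDI1 difference was then -0.96, -0.80 and -0.85, whereas without PD pig 2 it was -1.37 (unadjusted p = 0.00241, edgeR). By an exact two-sided Wilcoxon test on the changes of single pigs in regularised log values, which can reach p = 0.0159 with 5 against 4, the lowest p among the 7 was 0.0635, for IDI1 and FDFT1 at 6h (adjusted p = 0.598 for both). At 12h the differences in change between PD and GS ran from -0.60 for INSIG1 (95% interval -1.52 to 0.32) to 0.32 for HMGCS1 (-0.56 to 1.21). With each pig left out the HMGCS1 value ran from -0.0041 (without PD pig 4) to 0.63 (without PD pig 2), and that of INSIG1 from -0.78 (without PD pig 3) to -0.38 (without GS pig 77). The 12h intervals of HMGCS1, SQLE, IDI1, INSIG1 and LSS include a 2-fold difference, and those of FDFT1 (-0.83 to 0.44) and SREBF2 (-0.54 to 0.84) do not.

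The level of the 7 genes in PD and GS lungs was then compared at each time. IDI1 was higher in PD lungs at all 3 times, and HMGCS1 at 0h and 12h, whereas the other 5 were called at none. At 0h, before any lung had been perfused, 2 of the 7 were called, IDI1 and HMGCS1, against 29.1% of all genes. At 6h 1 of the 7 was called, IDI1, against 21.1%, and at 12h 2 were, IDI1 and HMGCS1, against 19.3%. Group, depth and any batch cannot be told apart, and these counts are near the share of all genes.

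IDI1 at 0h lay between 25.4 and 39.6 CPM in the 5 GS pigs (32.6, 31.7, 37.7, 25.4 and 39.6 in pigs 9, 17, 44, 55 and 77) and between 110 and 182 CPM in the 4 PD pigs, with no overlap. Its level was 4.57-fold higher in PD (log2 2.19, SE 0.21, adjusted p = 2.18e-05, edgeR). At 6h the GS pigs stood at 41.4, 42.2, 29.3, 64.9 and 32 CPM, and PD pig 5, at 54.7, was below GS pig 55. The difference was 1.12 (SE 0.33, adjusted p = 0.0285) and was lost without PD pig 2 (0.79, adjusted p = 0.114), GS pig 44 (0.9997, adjusted p = 0.0699) or GS pig 77 (1.005, adjusted p = 0.0781). At 12h the GS pigs stood at 27.3, 21.3, 24.5, 41.7 and 48.6 CPM and all PD pigs were above them, by 3.36-fold in the fit (log2 1.75, SE 0.39, adjusted p = 0.0104). The start of IDI1 overlaps that of WDR37 on the other strand, and WDR37 had negative differences, from -1.36 to -0.31 at the 3 times, none past the adjusted p. During perfusion WDR37 rose in GS by 1.10 at 6h (SE 0.27, adjusted p = 0.0103, edgeR) and 1.17 at 12h (SE 0.27, adjusted p = 0.00538), and had 0.19 and 1.31 in PD, neither past the adjusted p. The part of WDR37 in the IDI1 values, the 6h difference in change included, was not tested.

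HMGCS1 in PD pigs 2, 3, 4 and 5 stood at 135, 125, 95.3 and 150 CPM at 0h, 109, 86.8, 126 and 73.7 CPM at 6h, and 53.2, 132, 170 and 96.3 CPM at 12h. At 0h every PD pig was above the highest GS pig (83.5 CPM), and at 6h and 12h the groups overlapped. The log2 difference was 1.10 (SE 0.24, adjusted p = 0.00309, edgeR) at 0h, 0.86 (SE 0.35, adjusted p = 0.087) at 6h and 1.46 (SE 0.36, adjusted p = 0.0161) at 12h. At 0h it fell below 2-fold without GS pig 55 (0.94), and at 12h it lost its call without PD pig 4 (1.20, adjusted p = 0.053).

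SQLE and SREBF2 passed the adjusted p at 0h without reaching 2-fold, which with the 2 called genes made 4 of 7, against 40.6% of all genes. SQLE lay at 159 to 249 CPM in PD and 89.4 to 134 in GS at 0h, without overlap (log2 0.97, SE 0.20, adjusted p = 0.00272, edgeR), and the groups overlapped later. SREBF2 lay lower in PD, at 73.5 to 141 CPM against 105 to 290 in GS (log2 -0.88, SE 0.29, adjusted p = 0.0279). INSIG1 differed by 0.33, -0.19 and -0.35 at 0h, 6h and 12h, FDFT1 by 0.28, -0.24 and -0.002, and LSS by -0.16, -0.996 and -0.55, none past the adjusted p.

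Exon length, known for 81.9% of the genes tested at 0h, moved with this comparison. With genes split by exon length into 4 classes of equal size, the median PD minus GS difference at 0h was 0.71 on the log2 scale in the shortest class and -0.43 in the longest, with like trends at 6h (0.38 and -0.25) and 12h (0.70 and -0.38). IDI1, SQLE, INSIG1 and FDFT1 were in the second shortest class (median 0.08 at 0h), and HMGCS1, SREBF2 and LSS in the third (-0.22). With each library's trend with exon length and GC content removed, an alternative added after the data were seen, the differences at 0h, 6h and 12h were 2.16, 1.03 and 1.77 for IDI1, all called. For HMGCS1 they were 0.93, 0.36 and 1.11, of which 12h was called, and for SQLE 0.75, 0.38 and 0.33. For SREBF2 they were -0.09, 0.03 and 0.27, so its lower level in PD lungs was not found without the trend. LSS, with 0.47, -0.06 and 0.30, changed sign at 0h and 12h.

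**Figure D4:**
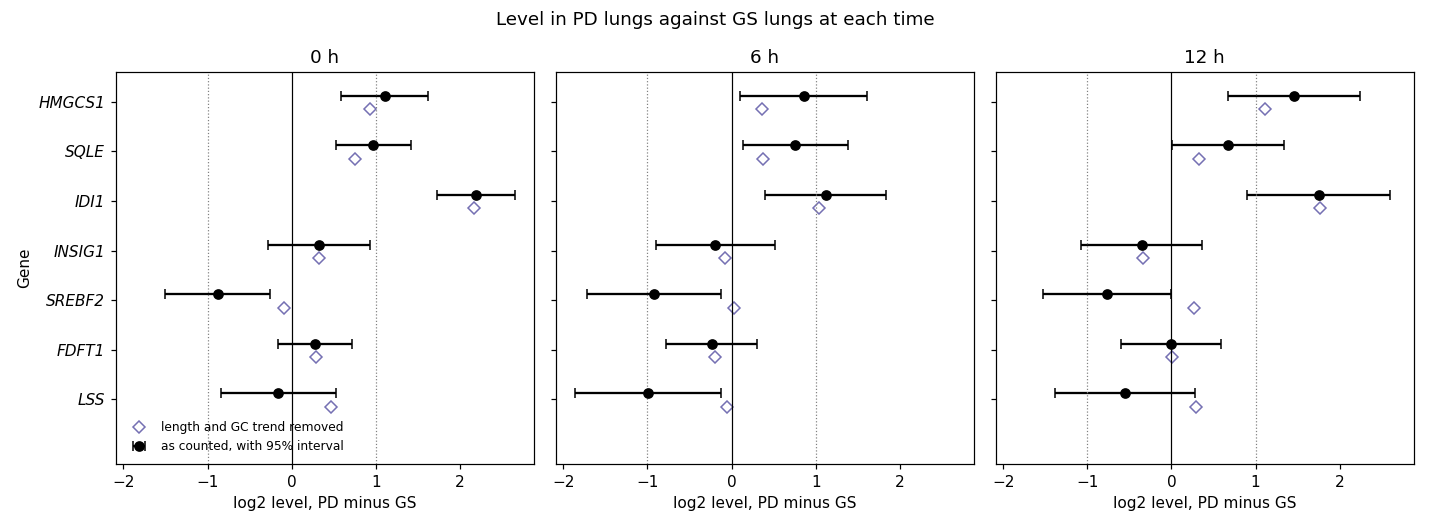
Difference in log2 level between PD and GS lungs at 0h, 6h and 12h for the 7 genes (black circles: as counted, with 95% intervals; open diamonds: with each library's trend with exon length and GC content removed; dotted lines: 2-fold). IDI1 lies to the right of 1 at every time by either treatment, and SREBF2 moves from about -0.9 to near 0 at 0h and 6h once the trend is removed.

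Of 11 lists of lung and blood cell markers, 3 had a higher and 1 a lower summed level in every PD library than in every GS library at 0h, and the other 7 overlapped. The counts of markers higher or lower that follow stand beside the 29.1% of all genes called at 0h and the 40.6% that passed the adjusted p alone. Of 7 alveolar type 2 markers 6 were in the table, with 2 higher and 1 lower in PD. Their summed level was 26607 to 78167 CPM in PD against 6914.5 to 9620.1 in GS, and 17648 to 90371 against 6663.8 to 15098 at 12h. SFTPC and SFTPA1 weigh most in this sum, with medians over all libraries of 5516 and 3798 CPM, beside 212 (ABCA3) to 1164 (SFTPB) for the others. The median difference of the 6 markers at 0h was 0.75 on the log2 scale. Of 5 neutrophil markers 3 were in the table, with 2 higher and 1 lower in PD, and a summed level of 599.6 to 1223 CPM against 121 to 369. The 2 erythroid genes summed to 51.3 to 236 CPM against 0.36 to 10.3, ALAS2 being at 0 in 1 library, and 1 of them was higher. Endothelial markers went the other way, with 1 higher and 2 lower by the adjusted p and a summed level of 1176 to 1538 CPM in PD against 1653 to 2292 in GS. Their part in the levels of IDI1 and HMGCS1 was not tested.

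The wider sterol and lipid pathway was followed in 8 lists of 77 genes, of which 72 were in the table and 71 were tested in GS. In GS lungs 4 of the 71 were called at 6h and 6 at 12h, all higher, beside the 11.1% and 15.7% of all genes called in either direction. The median log2 fold change of the lists was 0.06 at 6h, against -0.05 for all genes, and -0.09 at 12h, against -0.08. With the adjusted p alone 17 were higher and 6 lower at 6h, and 16 higher and 14 lower at 12h, that is 32.4% and 42.3% of the 71, near the 28.5% and 38.4% of all genes.

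Of the 8 mevalonate genes 1 was called at 6h and none at 12h, beside 11.1% and 15.7% of all genes, and their median at 12h was -0.27. ACAT2, the thiolase of the first step, rose by 1.16 on the log2 scale at 6h (SE 0.17, adjusted p = 0.00068, edgeR) and had 0.96 at 12h. Of 13 genes from squalene to cholesterol, 1 was called at 6h and none at 12h, beside the same shares. It was HSD17B7, a reductase of late sterol synthesis, at 1.33 (SE 0.21) and 0.83 at 12h, and the median at 12h was -0.12. Both genes lie in the same pathway as the 7, which had a median of 0.19 at 6h and -0.13 at 12h.

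Of 8 genes of cholesterol export and LXR targets, 3 were called at 12h in GS, all higher, beside the 15.7% of all genes. ABCA1, which loads cholesterol onto apolipoproteins, had a log2 fold change of 1.22 (SE 0.24, adjusted p = 0.00193, edgeR), ABCG1, which exports cholesterol to lipoprotein particles, had 1.26 (SE 0.22, adjusted p = 0.00114) and LPCAT3, a phospholipid acyltransferase, had 1.08 (SE 0.15, adjusted p = 0.000265). ABCG1 was also called at 6h (1.31). CYP27A1, a sterol hydroxylase of the same list, was lower by the adjusted p alone (-0.82, SE 0.30, adjusted p = 0.0469). The list's median at 12h was 0.16.

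Of 12 uptake and transport genes 2 were called at 12h in GS, both higher, again beside 15.7% of all genes, while by the adjusted p alone 4 were higher and 3 lower, beside 38.4% of all genes. MYLIP, a ubiquitin ligase that targets lipoprotein receptors and an LXR target, rose by 1.18 (SE 0.20, adjusted p = 0.000974, edgeR), and NPC1, which lets cholesterol out of lysosomes, by 1.11 (SE 0.15, adjusted p = 0.000239). NUS1, a subunit of the enzyme that makes dolichol from the mevalonate pathway, was called among 7 branch genes at 6h (1.18) and at 12h (1.36, SE 0.16, adjusted p = 0.000135), while PDSS2 of the same list was lower by the adjusted p alone (-0.71, SE 0.22, adjusted p = 0.0205). No gene of SREBP control was called, although SREBF1, the gene of SREBP-1 (0.87, SE 0.16, adjusted p = 0.00155), and RNF139 (0.88, SE 0.12, adjusted p = 0.000324) were higher by the adjusted p alone, as 3 of its 10 genes were, with another 3 lower, beside the same 38.4%. Likewise PLIN2, a lipid droplet coat protein, was higher at 12h (0.93, SE 0.21, adjusted p = 0.00441) and NCEH1, a cholesteryl ester hydrolase, lower (-0.60, SE 0.17, adjusted p = 0.0157), and no fatty acid synthesis gene passed (SCD 0.73 and ACSS2 -0.53). The calls of ABCG1, NPC1 and NUS1 at 12h held in 11 of 11 other settings, those of ABCA1 and MYLIP in 10 and that of LPCAT3 in 9. Over the same 12h in GS, none of 6 alveolar type 2 markers and none of 5 alveolar macrophage markers was called (medians 0.33 and 0.13), whereas 1 of 4 airway markers (median -0.68) and 1 of 4 T and NK cell markers (median -0.69) were called lower, and their part in these changes was not tested.

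In PD lungs none of the 71 was called at 6h (9, or 12.7%, had an unadjusted p under 0.05, against 9.41% of all genes, edgeR) and 1 was at 12h, NUS1 (1.54, SE 0.36, adjusted p = 0.0332, edgeR), beside 0.142% and 5.98% of all genes. The count of 1 depends on the settings: of 10 others NUS1 was called in 7, and it was lost without PD pig 3, 4 or 5 (1.51, 1.41 and 1.54, adjusted p = 0.221, 0.112 and 0.296), whereas NPC1 was called in 7, ACAT2 in 6, MYLIP in 5, ABCA1 and ABCG1 in 4 each and LPCAT3 in 1. Without PD pig 2, whose 12h library stood apart, 15 of the 71 were called higher and 7 lower at 12h (31%, against 24.4% of all genes), among them NPC1 (2.04), MYLIP (1.97), ABCA1 (2.67), ACAT2 (1.51), LPCAT3 (1.87) and NUS1 (1.66), and none of the 7 genes. Without PD pig 3, 4 or 5 no gene of the lists was called, and 0%, 2.55% and 0% of all genes were. The genes called in GS had PD values at 12h of 1.94 for ABCA1 (SE 0.74, adjusted p = 0.136), 1.148 for ABCG1 (SE 0.33, adjusted p = 0.0647), 1.18 for LPCAT3 (SE 0.65, adjusted p = 0.290, and 0.61 without pig 4), 1.44 for MYLIP (SE 0.49, adjusted p = 0.0995) and 1.55 for NPC1 (SE 0.42, adjusted p = 0.0534). ACAT2 had 1.27 (SE 0.35, adjusted p = 0.0549) and HSD17B7 0.66 (SE 0.50). With 1 pig left out the HSD17B7 value ran from 0.35 (without pig 5) to 1.05 (without pig 3). None of the 71 passed the test of the difference between the groups at 6h or 12h (edgeR), where no gene of the table passed, and 5 and 2 of the 71 (7.04% and 2.82%) had an unadjusted p under 0.05, against 5.85% and 5.98% of all genes. The other genes with the largest PD changes of their lists at 12h did not pass, such as STARD3, a carrier of endosomal cholesterol (-1.86, SE 0.58, adjusted p = 0.079), MVD of the mevalonate steps (-1.47, SE 1.12), PLIN2 (1.48, SE 0.45, adjusted p = 0.0718), CYP27A1 (-1.25, SE 0.42, adjusted p = 0.0983), PDSS1 of coenzyme Q synthesis (1.32, SE 0.51), RNF139 (1.15, SE 0.39), ACSS2 (-1.15, SE 0.42), SCD (1.01, SE 0.36), SC5D (0.88, SE 0.51), ACAT1 (-0.83, SE 0.37) and TM7SF2 (-0.74, SE 0.83). Of these, ACAT1 encodes a mitochondrial thiolase and not an enzyme of cholesterol storage, although it was counted in the storage list. At 12h the median of the lists in PD was 0.02, against -0.05 for all genes.

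**Figure D5:**
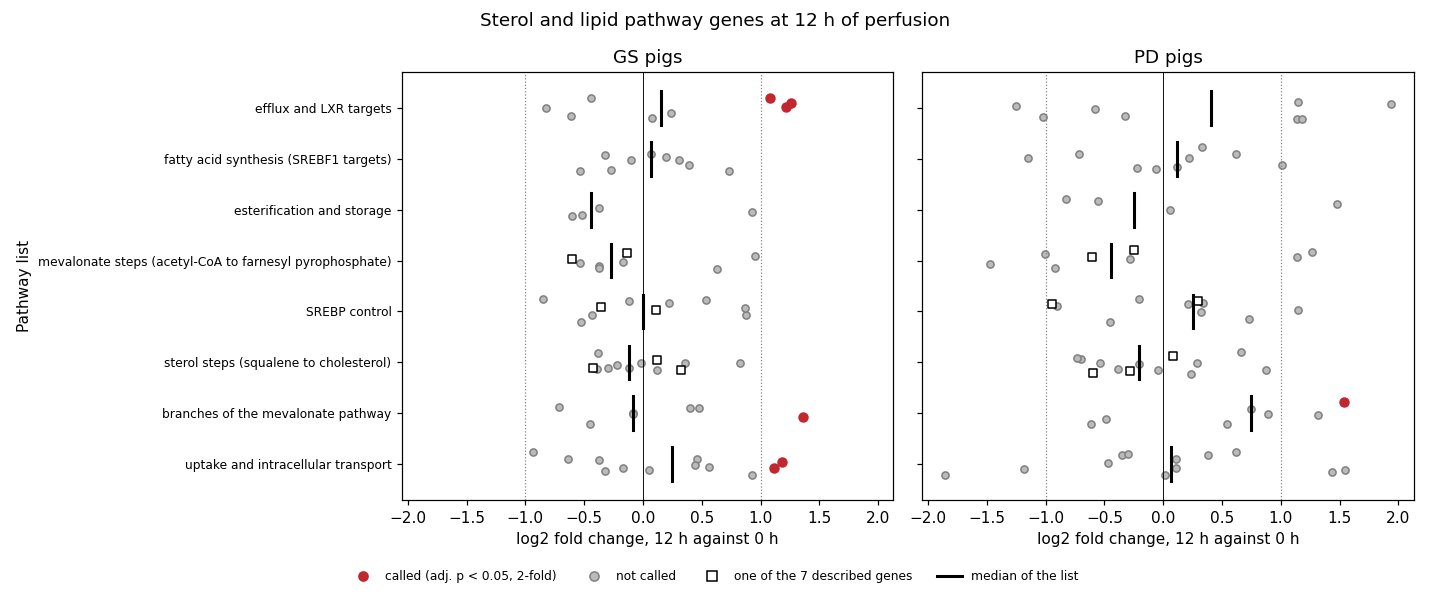
Log2 fold change at 12h against 0h of every tested gene of the 8 pathway lists, in GS pigs (left) and PD pigs (right), one point per gene (red: called; grey: not called; open squares: the 7 genes; bars: list median; dotted lines: 2-fold; vertical position within a list is arbitrary). In GS the 6 red points lie to the right, in the lists of export and LXR targets, uptake and transport, and branches of the pathway, and the open squares stay between -1 and 1.

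At 0h the list with the highest median PD minus GS difference was that of the branches, at 1.09 on the log2 scale, with 4 of its 7 genes called higher in PD. The mevalonate genes had 0.96, with 4 of 8 called higher, the storage list 0.79, with 1 of 4 higher, and the sterol steps 0.28, with 4 of 13 higher and 1 lower. The storage list counts ACAT1, the gene of a mitochondrial thiolase, so its median and count are not of storage genes alone. The other lists had negative medians, with -0.31 and 1 of 10 lower for SREBP control, -0.36 with 1 higher and 1 lower of 12 for uptake and transport, -0.39 with 3 of 9 lower for fatty acid synthesis and -0.67 with 2 of 8 lower for export and LXR targets. Over all lists 14 were called higher and 8 lower at 0h, 13 and 5 at 6h, and 12 and 5 at 12h, that is 31%, 25.4% and 23.9% of the 71, near the 29.1%, 21.1% and 19.3% of all genes.

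The 7 genes did not move as one. With every value centred on its pig's mean, the correlation of a gene with the mean of the other 6 over the 27 libraries, which share pigs and times, was 0.75 for IDI1, 0.68 for FDFT1 and 0.54 for INSIG1, and it was 0.01 for SQLE and -0.15 for SREBF2. INSIG1 and FDFT1 had an r of 0.73 (0.55 in GS and 0.82 in PD), IDI1 and FDFT1 0.70, and SREBF2 and LSS 0.58. Among the other genes of the table, with the 7 left out, those whose pattern was most like the mean of the 7, out of 12385 ranked, were TACR1 (r = 0.77), AGXT (0.72), GRB14 (0.72), INPP5J (0.71), TREM1 (0.71), SCG5 (0.70), SLC2A9 (0.68), MID1IP1 (0.67), ATP10B (0.66) and DPT (0.66), none of which is in the 8 lists.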

How the data were processed

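The table of counts per gene deposited by the authors (27 libraries, Sscrofa11.1, Ensembl release 101) was used as deposited. Per the labels and methods, trimming was by cutadapt 1.15 and alignment by TopHat2 2.0.14; the submitters' processing notes also name featureCounts, Subread 1.6.0 and DESeq2 1.18.1. The methods state that libraries were directional (TruSeq mRNA Stranded) and that RNA came from PicoPure or from Trizol with NucleoSpin. The strand setting of the counting, its handling of reads with several places and which kit each sample had are not given in the sources used here. Overlapping genes and close copies therefore carry an unknown error.

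Groups, pigs and times came from the labels. Each pig gave all 3 times, so the pig was the replicate block: residual profiles of libraries of a pig correlated by 0.547 in GS (0.348 to 0.753) and 0.117 in PD (-0.329 to 0.559). No libraries were duplicates (smallest chi-square per degree of freedom 36.4). Counts were fitted across all genes with edgeR 4.0.16 (R 4.3.3; filterByExpr, TMM, robust quasi-likelihood F tests, two-sided), with Benjamini-Hochberg adjusted p-values over all genes tested. Levels between groups were fitted without a block at each time. Functions were tested on simulated data. CPM used TMM; changes of single pigs are on log2 CPM with 0.5 counts added. Alternatives were DESeq2 1.42.0, its size factors, no filter, no replicate block, all libraries in 1 fit, no fold threshold, each pig left out, and, added later, removal of each library's trend over exon length and GC share (RefSeq exons).

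The 7 genes and the lists were chosen with earlier results of these data known. List genes are named where called during perfusion or among the 2 largest changes of their list at 12h; levels between groups are counted only, and some genes and sequences are not reported here. The 10 genes most alike were ranked by Pearson r. P-values of changes over time rest on how far the change differed between pigs, since the pig was a block. Those of levels between groups rest on the spread of levels between pigs.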

Additional observations from a re-analysis of the deposited data

Results flagged for a closer look

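The level of each of the 7 genes was looked at in 42 groups of 4 or 5 libraries for a single library far from the others. One stood out, FDFT1 in PD lungs at 12h, where pig 5 had 5.34 on the log2 CPM scale (40.5 CPM) and the other 3 pigs lay between 5.69 and 5.72. The threshold was Dixon's 95% critical value, by which chance flags about 1 in 20 groups, and here 1 of 42 was. Without PD pig 5 the FDFT1 log2 fold change at 12h was -0.36 (adjusted p = 0.801, edgeR), against -0.59 with it (adjusted p = 0.280). For none of the 7 genes did all GS pigs move one way and all PD pigs the other.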

How the results depend on the processing

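Of 896 values of the 7 genes under other settings, 883 kept their direction or stayed uncalled, 6 lost a call and 7 gained one, no called value changed sign, and 49 uncalled values did. The count of called genes among the 7 stayed at 0 in each within-group comparison and in the tests of the difference, also with no replicate block (0). Without the fold threshold it was 2 in GS at 12h and 4 in the levels at 0h. With each library's length and GC trend removed it was 1 at 0h. With each pig left out it ran from 1 (without GS pig 55) to 4 (without GS pig 9) at 0h, from 0 (without PD pig 2, GS pig 44 or GS pig 77) to 2 (without GS pig 9 or GS pig 17) at 6h and from 1 (without PD pig 4) to 2 at 12h. The cause was not tested. Over all genes, GS counts of 2057 at 6h and 2911 at 12h became 1123 and 1896 with no replicate block, 1219 with all libraries in 1 fit at 6h, and 1293 and 1856 with the trend removed. PD counts of 22 and 930 became 100 and 1460 with no replicate block, 408 and 2518 by DESeq2, 479 and 3300 with all libraries in 1 fit, 206 and 2336 with the trend removed, and 103 at 6h without the filter. Leaving out a pig gave 0 to 98 at 6h and 0 (without PD pig 3 or 5) to 3826 (without PD pig 2) at 12h in PD, and down to 1318 (without GS pig 44) at 6h in GS. Levels at 0h and 6h went from 4792 and 3418 to 2748 and 1302 with the trend removed. Without PD pig 2 the 6h count was 1658, and the 12h count went from 3179 to 1958 without GS pig 44, 2040 without GS pig 77, 2083 without GS pig 55 and 2114 without PD pig 5. The interactions, at 0, became 254 and 153 without PD pig 2 and 13 and 27 by DESeq2. In PD, 12h against 6h went from 0 to 205 by DESeq2 and 492 with all libraries in 1 fit, and in GS from 0 to 6 by DESeq2. Depth left at least 450 counts for each of the 7 genes in every library.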
